A study of Homo sapiens with 6 samples.

Results

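The ATF4 amino acid response genes examined here are 34 genes taken by symbol from a listed set, out of 60591 gene symbols in the count table. ATF4, genes it is known to induce when amino acids run short or the endoplasmic reticulum is stressed, and the kinases and phosphatase subunit that act upstream of it make up the set. The cells were MDA-MB-231, an established triple-negative breast cancer line of human origin, in a variant that homes to bone. Their RNA was measured in a 3-dimensional model without flow (static, 0 mL/min), at a flow rate of 1 mL/min (low flow) and at 15 mL/min (high flow). All 3 groups are the same line and differ by flow rate alone in the labels, and each has 2 libraries. Nothing in the labels says that the libraries of a group came from separate cultures, and p-values cover the spread between these libraries alone, which may be technical.

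When amino acids are scarce, uncharged tRNAs activate the kinase GCN2 (EIF2AK4), and misfolded protein in the endoplasmic reticulum activates PERK (EIF2AK3). Both phosphorylate the initiation factor eIF2, which slows translation in general while the ATF4 messenger is translated more. ATF4 protein then binds composite elements, often called CARE or AARE, and induces amino acid synthesis, amino acid uptake, one-carbon metabolism and further regulators. ATF4 is therefore controlled largely through translation, which RNA counts do not show.

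Of the 34 genes, 33 passed the filter on low counts. CBS, cystathionine beta-synthase of the transsulfuration pathway, had 0 counts in every library. CBS has a near-identical copy in the genome, which makes its count uncertain. Library totals were 17822642 and 23544307 counts in static, 45174328 and 47067620 in low flow, and 43965176 and 53279537 in high flow. By the column names both high flow libraries ran in a different lane from the other 4. Their columns are also named in another style and marked as sorted alignments, unlike the other 4. In every comparison with high flow, flow rate, lane and any such difference in handling therefore cannot be told apart, and there is no value within a lane. Of the markers of MDA-MB-231, VIM had at least 3618 CPM (counts scaled to a common library size) and CD44 at least 923 CPM in every library. Of 8 luminal and epithelial genes, 3 stayed under 1 CPM throughout, among them the cadherin CDH1, at 0.0563 CPM at most. Others were expressed: ERBB2 ran from 49.6 to 68.5 CPM and KRT19 from 27.5 to 70.4. That list summed to 114 to 115 CPM in static, 122 to 140 in low flow and 137 to 168 in high flow. ERBB2 rose under high flow against static (log2 fold change 0.33, adjusted p = 0.0378). In that comparison 4 of the 6 tested genes of the list had negative log2 fold changes, among them EPCAM (-0.55) and FOXA1 (-0.32), and 0 were called lower. The labels call the cell type endothelial cancer cells: of 8 endothelial markers CDH5, VWF, CLDN5 and TEK stayed under 1 CPM throughout, while PECAM1 ran from 8.32 to 14.1 CPM, TIE1 from 29.9 to 44.2, ESAM from 24.3 to 37.5 and KDR from 0.413 to 1.70. Under high flow against static PECAM1 rose (log2 fold change 0.55, adjusted p = 0.0139) and KDR fell (-1.39, adjusted p = 0.0214). The summed endothelial list was 65.2 to 87.5 CPM in static, 82.1 to 95.4 in low flow and 91.3 to 94.7 in high flow. The leukocyte list summed to at most 3.37 CPM, with 4 of 6 genes under 1 CPM in every library. In the osteoblast and stroma list 6 of 8 were, and its sum, nearly all RUNX2, was 66.1 to 68.3 CPM in static, 55.7 to 58.6 in low flow and 51.5 to 53.0 in high flow. The part of these markers in the results was not tested. In bulk RNA, fewer cells of a kind and less RNA per cell cannot be told apart.

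The 2 low flow libraries stood apart for these genes. In 28 of the 33 tested genes low flow replicate 2 was below low flow replicate 1, against 49.8% of all 20676 genes tested. The median gap between the libraries of a group was 1.08-fold in static, 1.21-fold in low flow and 1.05-fold in high flow over the 33 genes. Over all genes it was 1.14-fold in static, 1.12-fold in low flow and 1.10-fold in high flow. Relative to the static mean, on a scale of log2(CPM + 0.5), the median of the 33 genes was -0.11 in low flow replicate 1 and -0.39 in low flow replicate 2. It was -0.31 and -0.28 in the high flow libraries. By these medians low flow replicate 1 lay between static and high flow, and low flow replicate 2 lay below both high flow libraries. Gene by gene this was less uniform: low flow replicate 1 was above both high flow libraries, with low flow replicate 2 among or below them, in 17 of the 33 genes, against 15.4% of all genes tested. In ASNS, DDIT3, TRIB3 and SLC7A11 both low flow libraries were above both high flow libraries.

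**Figure D1:**
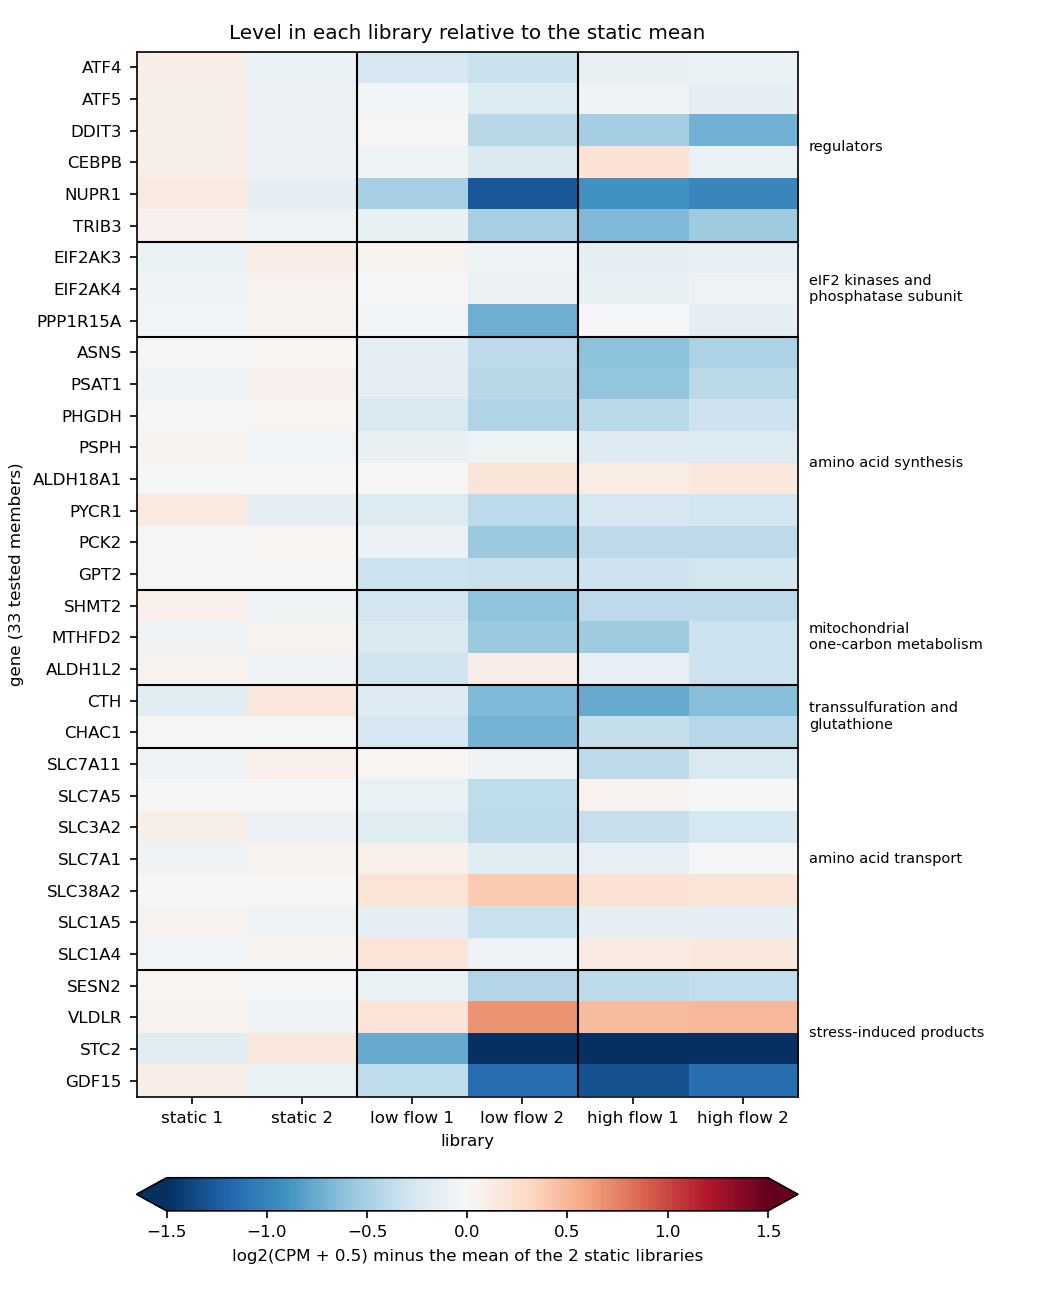
Level of each of the 33 tested genes (rows, grouped by role) in each of the 6 libraries (columns), as log2(CPM + 0.5) minus the mean of the 2 static libraries, with lower values in blue and higher values in red. Blue is deepest for STC2, GDF15 and NUPR1, and low flow replicate 2 is bluer than low flow replicate 1 in 28 of the 33 rows.

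The element that ATF4 is known to bind was looked for in the promoters, since it is the sequence feature by which such genes are usually recognised. The RefSeq promoter table on GRCh38.p14, kept to the first entry of each gene with 250 bases before to 50 after its start, held 27 of the 34 genes. Other starts, where a gene has them, were not searched. NUPR1, PSPH, PYCR1, GPT2, SHMT2, ALDH1L2 and SLC7A11 had no entry. The core TGATGNAA, searched on both strands, was present in 4 of the 27 promoters, against 3.67% of all 27305 promoters in the table. The 4 follow, 5′ to 3′ on the gene's strand, with the match in capitals. Positions are those of the first base of the match, counted from 1 at the start site, and TTACATCA and TTGCATCA are matches on the opposite strand.
ASNS, chr7:97872439-97872506, minus strand, match at -68: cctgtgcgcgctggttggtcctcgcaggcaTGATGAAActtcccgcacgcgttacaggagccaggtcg
CHAC1, chr15:40953232-40953299, plus strand, match at -209: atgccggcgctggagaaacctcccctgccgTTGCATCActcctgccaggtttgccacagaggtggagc
SLC3A2, chr11:62881725-62881748, plus strand, match at 38: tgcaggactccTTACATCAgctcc
SLC7A1, chr13:29595663-29595692, minus strand, match at 8: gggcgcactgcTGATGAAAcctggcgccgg
Under high flow against static the log2 fold changes of these genes were -0.55 for ASNS, which passed the test described next, -0.41 for CHAC1, -0.31 for SLC3A2 and -0.08 for SLC7A1. The cAMP response element TGACGTCA, which reads the same on both strands and shares no match with the core, was present in 1 of the 27 promoters, that of PPP1R15A, against 1.98% of all promoters. A match describes the letters in this window and no more, and genes without one may hold an element elsewhere.

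Under high flow, 12 of the 33 tested genes were lower and 1 was higher than in static cells (quasi-likelihood test of edgeR, two-sided, adjusted p under 0.05). Of all 20676 genes tested 6.43% were called lower and 7.49% higher. Those lower were the regulators DDIT3, NUPR1 and TRIB3, the synthesis enzymes ASNS, PSAT1 and PHGDH, the one-carbon enzymes SHMT2 and MTHFD2, the transsulfuration enzyme CTH, the cystine transporter SLC7A11, and SESN2 and GDF15. VLDLR was higher. The median log2 fold change of the 33 genes was -0.31, against 0.00 over all genes tested, and 27 of the 33 were negative. In 23 genes both high flow libraries lay below both static libraries, and in 5 both lay above. Over all genes tested 29.4% had high flow wholly below static and 29.9% wholly above.

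Under low flow, 1 of the 33 was lower than in static cells, SHMT2, and 0 were higher. The shares of all genes tested were 3.49% lower and 3.25% higher. At an unadjusted p under 0.05 there were 18 lower and 2 higher, against 11.7% of all genes tested in each direction, and DESeq2 called 4 lower and 2 higher. Over all genes DESeq2 called 804 lower and 834 higher, which were 2.12% and 2.20% of the unfiltered genes it was run on. The median log2 fold change was -0.27, against 0.01 over all genes tested, and 29 of the 33 were negative. Both low flow libraries lay below both static libraries in 20 genes and above in 3, against 26.3% and 27.1% of all genes tested. Low and high flow were set against the same 2 static libraries, so the 2 comparisons are not independent.

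**Figure D2:**
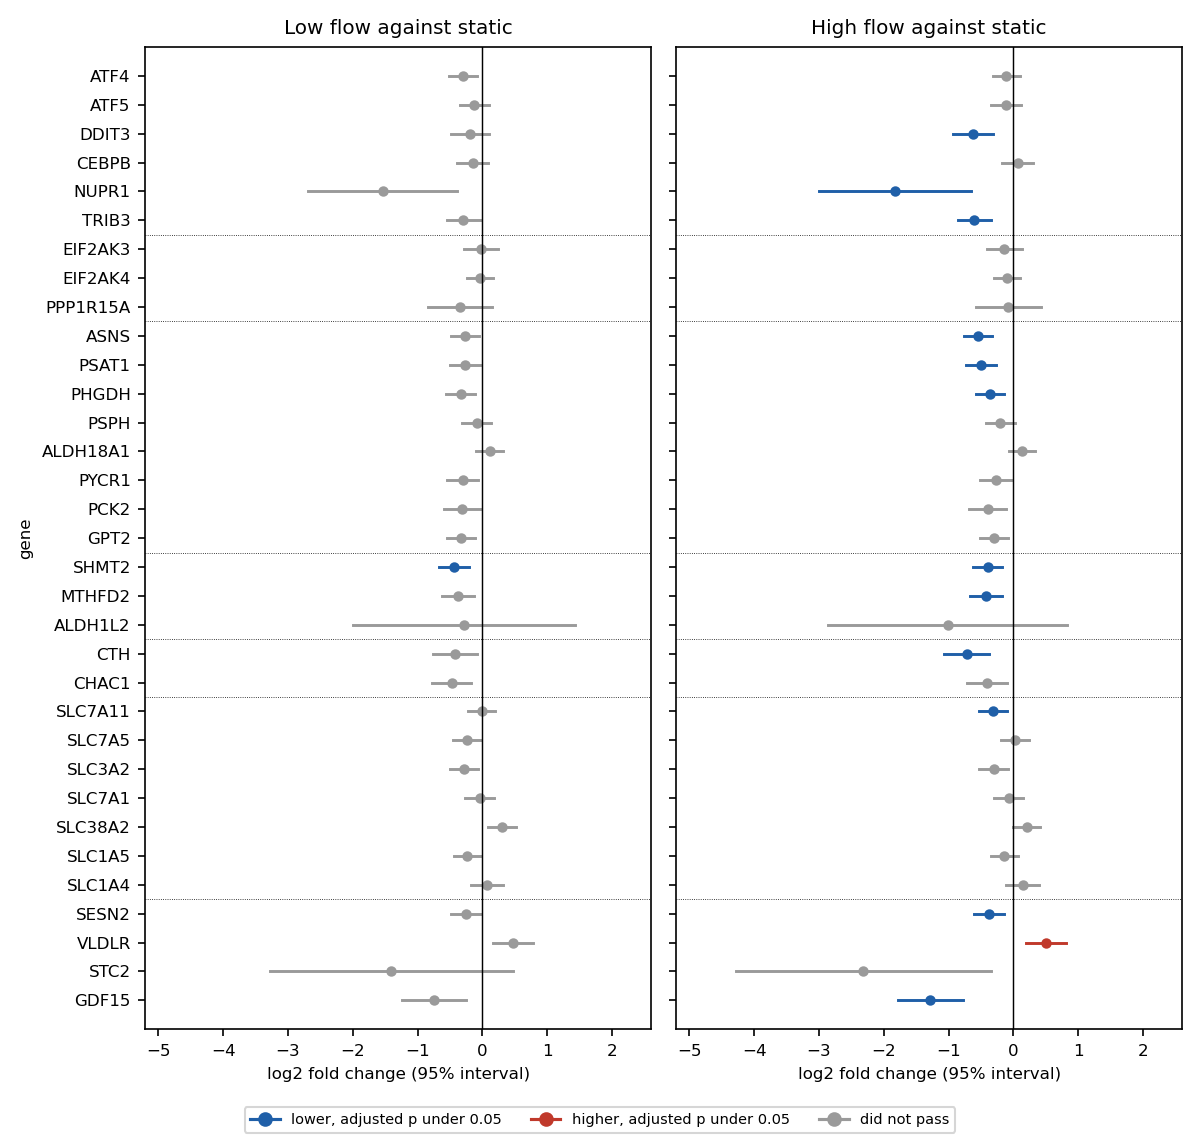
Log2 fold change of each tested gene with its 95% interval, for low flow against static (left) and high flow against static (right), grouped by role with dotted lines between roles. Genes that passed the test are blue (lower) or red (higher): SHMT2 on the left, 12 lower genes and VLDLR on the right.

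Among the 6 regulators, ATF4 itself (chr22:39519695-39522685 on GRCh38, as are the positions that follow) did not pass in any comparison. Its CPM were 408 and 354 in static, 319 and 301 in low flow, and 351 and 355 in high flow. High flow overlapped with static (log2 fold change -0.11, 95% interval -0.32 to 0.10, adjusted p = 0.499), while both low flow libraries lay below both static libraries (-0.30, interval -0.51 to -0.09, adjusted p = 0.0791). Its RNA was among the most abundant of the set: per kilobase of exon, the static mean was 152 CPM for ATF4, next to 156 for PPP1R15A, 81.0 for SLC7A5 and 79.2 for SLC38A2. On the same scale NUPR1 was at 0.18 and ALDH1L2 at 0.02.

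DDIT3 (chr12:57516588-57521737) encodes CHOP, a transcription factor that ATF4 induces and that takes part in stress-induced cell death. It had 36.1 and 31.9 CPM in static, 34.3 and 25.2 in low flow, and 23.7 and 20.4 in high flow. Both high flow libraries were below all 4 others, and DDIT3 fell 1.54-fold under high flow against static (log2 fold change -0.62, SE 0.14, adjusted p = 0.0104). Its exons share 105 bases with AC022506.1 on the same strand, whose log2 fold change was -0.34 (adjusted p = 0.156), and 355 bases with MARS1 on the other strand. TRIB3 (chr20:362835-397559), a pseudokinase that acts back on ATF4 and on AKT signalling, had 61.9 and 56.4 CPM in static, 54.5 and 41.5 in low flow, and 37.3 and 40.6 in high flow. The 3 groups did not overlap, and TRIB3 fell 1.52-fold under high flow against static (log2 fold change -0.60, SE 0.12, adjusted p = 0.00478).

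NUPR1 (chr16:28532708-28539174), a small stress-induced chromatin protein, was near the limit of detection, with 21 and 20 counts in static, 26 and 6 in low flow, and 13 and 14 in high flow. Scaled by library size these were 1.16 and 0.87 CPM in static, 0.57 and 0.12 in low flow, and 0.30 and 0.26 in high flow. Both high flow libraries were below both static libraries, and NUPR1 fell by 1.82 on the log2 scale (SE 0.56, adjusted p = 0.0380), but DESeq2 did not call it. ATF5 and CEBPB, related bZIP transcription factors, did not pass. Their log2 fold changes were -0.12 and 0.07 under high flow against static and -0.13 and -0.15 under low flow against static.

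The genes that act on eIF2 itself did not pass in any comparison. EIF2AK4, which encodes GCN2, had 105 and 114 CPM in static, 110 and 103 in low flow, and 101.2 and 104 in high flow, and its log2 fold change under high flow against static was -0.09 (95% interval -0.29 to 0.11). EIF2AK3, which encodes PERK, ran from 13.5 to 16.1 CPM over the 6 libraries and had a log2 fold change of -0.14 (interval -0.41 to 0.13). PPP1R15A encodes GADD34, the subunit that directs a phosphatase to eIF2 and so reverses the response. It had 468 and 496 CPM in static, 469 and 290 in low flow, and 474 and 440 in high flow. Low flow replicate 2 was lower than the other 5 libraries, which lay close together.

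Of the 8 amino acid synthesis genes, 3 fell under high flow against static, against 6.43% of all genes tested. Under low flow 0 passed with edgeR or with DESeq2, and 6 were lower at an unadjusted p under 0.05, against 11.7% of all genes tested. ASNS (chr7:97852118-97872542), asparagine synthetase and a common reporter of this response, had 89.3 and 92.4 CPM in static, 82.0 and 68.9 in low flow, and 59.0 and 65.3 in high flow. The groups stepped down without overlap, and the means were 62.1 ± 4.43 CPM in high flow and 90.8 ± 2.20 CPM in static (SD, n = 2 each). ASNS fell 1.46-fold under high flow against static (log2 fold change -0.55, SE 0.10, adjusted p = 0.00319), and under low flow against static its log2 fold change was -0.27 (adjusted p = 0.127). Its exons share 1985 bases, 44.6% of their length, with the processed transcript AC079781.5 on the same strand. That transcript held 117% as many counts as ASNS and fell under high flow against static as well (log2 fold change -0.45, adjusted p = 0.00694). How reads of the shared exons were assigned is not stated, so the ASNS value is uncertain in size.

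Serine is made from a glycolytic intermediate by PHGDH, PSAT1 and PSPH in turn. PSAT1 (chr9:78297143-78330093), the aminotransferase of the pathway, had 127 and 139 CPM in static, 120 and 99.5 in low flow, and 88.2 and 99.9 in high flow. Every static library was above every library with flow, and low flow replicate 2 lay among the high flow libraries. PSAT1 fell 1.41-fold under high flow against static (log2 fold change -0.50, SE 0.11, adjusted p = 0.00680). PHGDH (chr1:119648411-119744226), the first enzyme, had 50.3 and 52.6 CPM in static, 43.9 and 37.5 in low flow, and 38.8 and 41.2 in high flow. It fell 1.29-fold under high flow against static (adjusted p = 0.0294) and had a log2 fold change of -0.34 under low flow against static (adjusted p = 0.0616). The last enzyme, PSPH, did not pass, with 25.3 and 25.1 CPM in high flow, against 29.7 and 28.3 CPM in static.

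The other synthesis genes did not pass in either comparison with static. The log2 fold changes under high flow were -0.40 for PCK2 (mitochondrial PEP carboxykinase, adjusted p = 0.0596), -0.30 for GPT2 (mitochondrial alanine transaminase, adjusted p = 0.0576) and -0.28 for PYCR1 (proline synthesis, adjusted p = 0.106). In all 3 genes the high flow libraries were below the static libraries. ALDH18A1, which makes the precursor of proline, went the other way, with 88.0 and 90.6 CPM in high flow, against 81.8 and 81.0 CPM in static (log2 fold change 0.13, adjusted p = 0.382).

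Of the 3 mitochondrial one-carbon genes, 2 fell under high flow against static, against 6.43% of all genes tested. SHMT2 was the gene that also passed under low flow, where 3.49% of all genes tested were lower. SHMT2 (chr12:57229327-57234935), which moves a carbon unit from serine to folate, had 164 and 148 CPM in static, 128 and 103 in low flow, and 119 in each high flow library. Both groups with flow lay below static and overlapped with each other. SHMT2 fell 1.36-fold under low flow against static (log2 fold change -0.44, SE 0.11, adjusted p = 0.0222) and 1.32-fold under high flow against static (-0.40, SE 0.11, adjusted p = 0.0213). The low flow call ended with only the 4 libraries compared, and when any library other than low flow replicate 1 was left out. MTHFD2 (chr2:74198562-74217565), the next enzyme of the pathway, had 67.8 and 72.5 CPM in static, 60.4 and 47.5 in low flow, and 48.3 and 56.0 in high flow. It fell 1.34-fold under high flow against static (adjusted p = 0.0236), and a correction for transcript length and GC content ended the call (log2 fold change -0.34, adjusted p = 0.0550, against -0.43 without it). ALDH1L2, the mitochondrial 10-formyltetrahydrofolate dehydrogenase, had 3 to 12 counts per library, too few to show a difference at this depth.

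In the transsulfuration and glutathione group, CTH (chr1:70411218-70439851) encodes cystathionine gamma-lyase, which releases cysteine. It had 28.8 and 36.6 CPM in static, 28.4 and 20.4 in low flow, and 19.1 and 20.7 in high flow. CTH fell 1.65-fold under high flow against static (log2 fold change -0.72, SE 0.16, adjusted p = 0.0110), with low flow replicate 1 next to the lower static library and low flow replicate 2 between the high flow libraries. CHAC1, which degrades glutathione and is strongly induced by ATF4, did not pass. It had 14.9 and 14.1 CPM in high flow, against 19.4 and 19.04 CPM in static (log2 fold change -0.41, adjusted p = 0.0689), and its log2 fold change under low flow against static was -0.48 (adjusted p = 0.0559).

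Of the 7 amino acid transporters, 1 was called lower under high flow against static, against 6.43% of all genes tested, and 0 were called higher. SLC7A11 (chr4:138164097-138242349), the cystine importer xCT, had 138 and 153 CPM in static, 148 and 140 in low flow, and 110 and 123 in high flow. Static and low flow overlapped while both high flow libraries were lower. SLC7A11 fell 1.24-fold under high flow against static (log2 fold change -0.31, SE 0.10, adjusted p = 0.0421). This adjusted p was the highest of the 12, and the call ended without the expression filter, with the replicate block and with the length and GC correction. Its partner chain SLC3A2 did not pass, with 176 and 186 CPM in high flow, against 237 and 210 CPM in static (log2 fold change -0.31, adjusted p = 0.0551).

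SLC7A5, the leucine transporter that also pairs with SLC3A2, had 385 and 384 CPM in static, 359 and 294 in low flow, and 398 and 385 in high flow. Low flow replicate 2 was the lowest library, and high flow lay just above static (log2 fold change 0.03, 95% interval -0.19 to 0.25). SLC38A2, which imports small neutral amino acids, lay higher in every library with flow than in static: 523 CPM in each static library, 603 and 688 in low flow, and 607 and 598 in high flow. It did not pass under low flow (log2 fold change 0.30, adjusted p = 0.0791) or high flow (0.20, adjusted p = 0.191). The glutamine transporter SLC1A5, the cationic transporter SLC7A1 and the neutral transporter SLC1A4 had log2 fold changes of -0.14, -0.08 and 0.14 under high flow against static and did not pass.

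Among the 4 stress-induced products, GDF15 (chr19:18374731-18389176), a secreted hormone of cell stress, had 15.3 and 13.2 CPM in static, 10.8 and 6.19 in low flow, and 5.48 and 6.23 in high flow. Every library with flow was below static, and low flow replicate 2 lay between the high flow libraries. GDF15 fell 2.43-fold under high flow against static (log2 fold change -1.28, SE 0.23, adjusted p = 0.00618). SESN2 (chr1:28259527-28282491), a leucine sensor that restrains mTORC1, had 76.4 and 73.1 CPM in static, 69.9 and 54.8 in low flow, and 56.8 and 57.9 in high flow. It fell 1.30-fold under high flow against static (adjusted p = 0.0289).

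STC2, the secreted glycoprotein stanniocalcin 2, had the largest difference of the 33 genes under high flow against static but did not pass. It had 15.1 and 18.95 CPM in static, 9.79 and 3.12 in low flow, and 3.18 and 3.62 in high flow. The log2 fold change under high flow against static was -2.32 (95% interval -4.29 to -0.35, adjusted p = 0.129). Both high flow libraries and low flow replicate 2 lay far below static, with low flow replicate 1 between, and all comparisons share 1 estimate of the spread. The log2 fold change ran from -2.47 to -2.14 over all alternatives. The adjusted p was 1.92e-16 with only the 4 libraries compared, 0.00581 with DESeq2 and 0.00844 in a second draw of thinning to the smallest library. In the other fits with 2 libraries per group STC2 did not pass. There the adjusted p ran from 0.0976 in the first draw of thinning to 0.259 without the expression filter.

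VLDLR (chr9:2621834-2660053), a lipoprotein receptor, was the 1 gene called higher. It had 18.9 and 17.6 CPM in static, 20.9 and 29.5 in low flow, and 25.5 and 26.0 in high flow. VLDLR rose 1.41-fold under high flow against static (log2 fold change 0.50, SE 0.14, adjusted p = 0.0300), and its log2 fold change under low flow against static was 0.47 (adjusted p = 0.0614). The antisense gene VLDLR-AS1, which shares 738 exon bases with it, fell in the same comparison (log2 fold change -1.23, adjusted p = 0.0122). Whether reads were counted by strand is not stated, so the values of genes with such partners carry that uncertainty. The length and GC correction ended the call for VLDLR (adjusted p = 0.0622) without moving the value much (0.48).

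**Figure D3:**
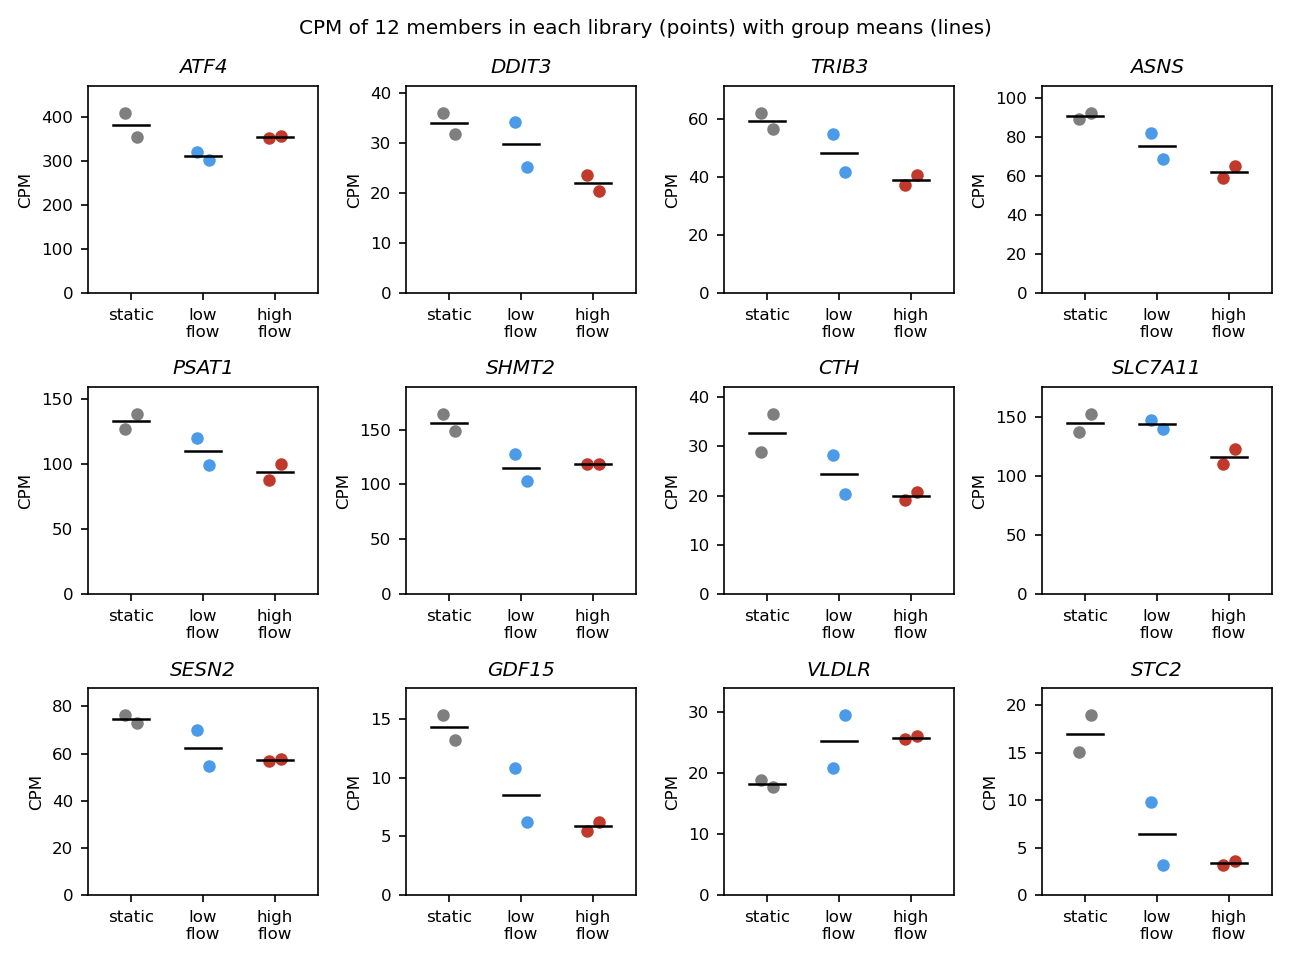
CPM of 12 of the genes in each library (points: static grey, low flow light blue, high flow red) with the mean of each group as a line, on axes that start at 0. ATF4 is lowest in low flow, SLC7A11 is lower in high flow alone, VLDLR is higher with flow, and in most other panels the low flow libraries are split between the static and the high flow level.

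Between the flow rates, 0 of the 33 genes were called higher or lower under high flow than low flow, against 0.242% higher and 0.0919% lower of all genes tested. DESeq2 also called 0. At an unadjusted p under 0.05 there were 5 lower and 1 higher, against 4.54% and 5.08% of all genes tested. The median log2 fold change was -0.05. High flow lay wholly below low flow in 6 genes and wholly above in 3, against 21.5% and 21.2% of all genes tested. The 6 included DDIT3 (log2 fold change -0.43, adjusted p = 0.307), SLC7A11 (-0.30, adjusted p = 0.307), TRIB3 (-0.30, adjusted p = 0.424) and ASNS (-0.28, adjusted p = 0.388). SLC7A5 and ATF4 were among the 3 above, with log2 fold changes of 0.26 (adjusted p = 0.425) and 0.19 (adjusted p = 0.567). Calls and median both depended on the low flow library kept: the median was -0.13 without low flow replicate 2 and turned to 0.0888 without low flow replicate 1. Group means were lower at each step of static, low flow and high flow in 19 of the 33 genes, against 22.6% of all genes tested, and higher at each step in 3, against 24.7%.

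The 5 further lists hold genes that neighbour these in function. Of 19 tested other ATF4 targets, 6 fell under high flow against static, against 6.43% of all genes tested. Under low flow 4 fell and 1 rose, against 3.49% and 3.25% of all genes tested. DDIT4, the mTORC1 inhibitor REDD1, had 540 and 556 CPM in static, 318 and 265 in low flow, and 192 and 196 in high flow. The 3 groups did not overlap, and DDIT4 fell under low flow against static (log2 fold change -0.91, adjusted p = 0.000116), under high flow against static (2.82-fold, adjusted p = 5.61e-07) and under high flow against low flow (-0.59, adjusted p = 0.0133). The autophagy gene MAP1LC3B fell under both flow rates against static, by 0.37 and 0.64 on the log2 scale (adjusted p = 0.0405 and 0.00102). NFIL3, a bZIP repressor, fell under high flow against static (-0.56, adjusted p = 0.00405), and KLHL24, a ubiquitin ligase adaptor, rose under low flow (0.67, adjusted p = 0.00599). ATF3, a stress-induced partner of ATF4, did not pass: its CPM were 111 and 124 in static, 151 and 85.0 in low flow, and 137 and 122 in high flow.

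The cytosolic aminoacyl-tRNA synthetases load amino acids onto tRNAs, and ATF4 induces many of them. Under high flow against static 4 of 20 were lower, against 6.43% of all genes tested, with a median log2 fold change of -0.19. Those lower were GARS1 (log2 fold change -0.57, adjusted p = 0.00316), WARS1 (-0.52, adjusted p = 0.00807), FARSB (-0.49, adjusted p = 0.00707) and TARS1 (-0.39, adjusted p = 0.0238). GARS1 was also the 1 of 20 that fell under low flow (-0.49, adjusted p = 0.0149), against 3.49% of all genes tested. In the list of eIF2 and its control, 2 of 15 fell under high flow against static, against 6.43% of all genes tested. They were the eIF2 subunits EIF2S2 (-0.54, adjusted p = 0.00243) and EIF2S1 (-0.37, adjusted p = 0.0223), and EIF2S2 also fell under low flow (-0.42, adjusted p = 0.0185).

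Neighbouring amino acid and one-carbon enzymes went both ways. Under high flow against static 3 of 22 were lower and 2 higher, against 6.43% and 7.49% of all genes tested (median log2 fold change 0.00). Under low flow against static 2 were lower and 1 higher, against 3.49% and 3.25% of all genes tested (median -0.03). The aspartate transaminase GOT1 fell under high flow against static (-0.45, adjusted p = 0.0154), as did GCLM, a subunit of the glutathione synthesis enzyme (-0.45, adjusted p = 0.0185), and the cytosolic folate enzyme MTHFD1 (-0.33, adjusted p = 0.0377). The 2 that fell under low flow were GCLM (-0.40, adjusted p = 0.0498) and MTHFD1 (-0.35, adjusted p = 0.0439). In the other arms of the unfolded protein response 3 of 14 fell under high flow against static, against 6.43% of all genes tested. They were the sensor ERN1 (-0.59, adjusted p = 0.00171), the secreted factor MANF (-0.36, adjusted p = 0.0264) and XBP1 (-0.34, adjusted p = 0.0337). Under low flow edgeR called 0 of these 14. At an unadjusted p under 0.05, 3 were lower and 1 higher, against 11.7% of all genes tested in each direction.

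**Figure D4:**
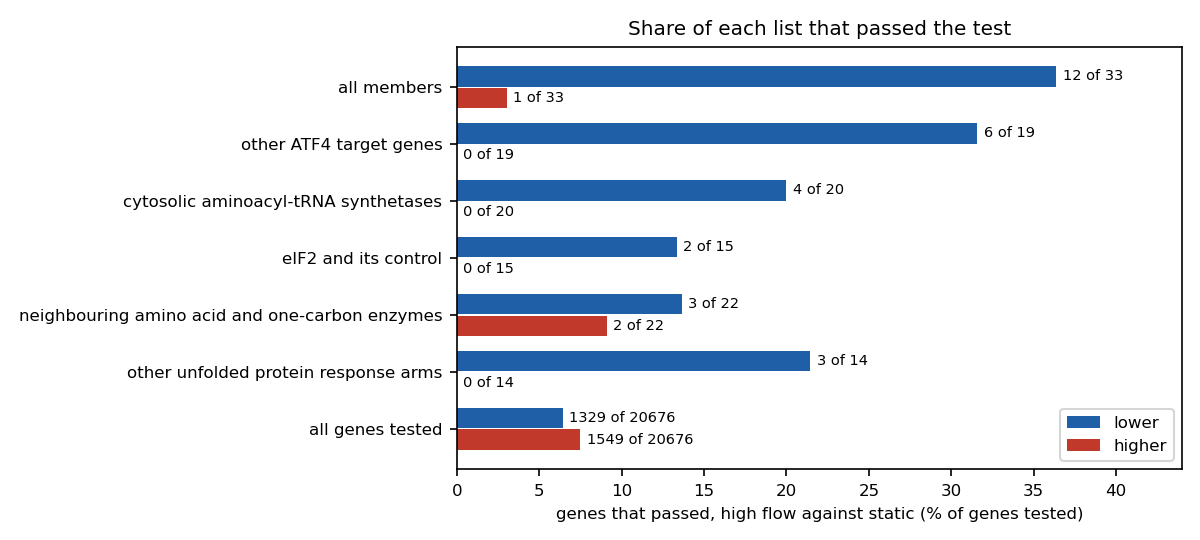
Share of tested genes that passed in high flow against static, lower (blue) and higher (red), for the ATF4 amino acid response genes (labelled all members), the 5 neighbouring lists and all genes tested, with counts beside the bars. The lower share is 12 of 33 for the ATF4 amino acid response genes and 6 of 19 for other ATF4 targets, against 1329 of 20676 genes tested.

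Counts of calls under high flow against static depended on single libraries, in the 33 genes and in all genes. Without static replicate 1 the fit called 5 of the 33 lower (4.59% of all genes), and without static replicate 2 it called 1 (0.737%). Without high flow replicate 1 it called 0 (0.561%), and without high flow replicate 2 it called 4 (1.71%). Without either low flow library it called 16 (8.51% and 8.57%). In low flow against static, 18 were lower and 2 higher without low flow replicate 1, the library nearest to static, against 7.12% and 7.39% of all genes. The direction of the 13 genes called under high flow against static stayed the same in every alternative run: TRIB3 passed in 14 of 15, ASNS in 13 and SLC7A11 in 8.

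**Figure D5:**
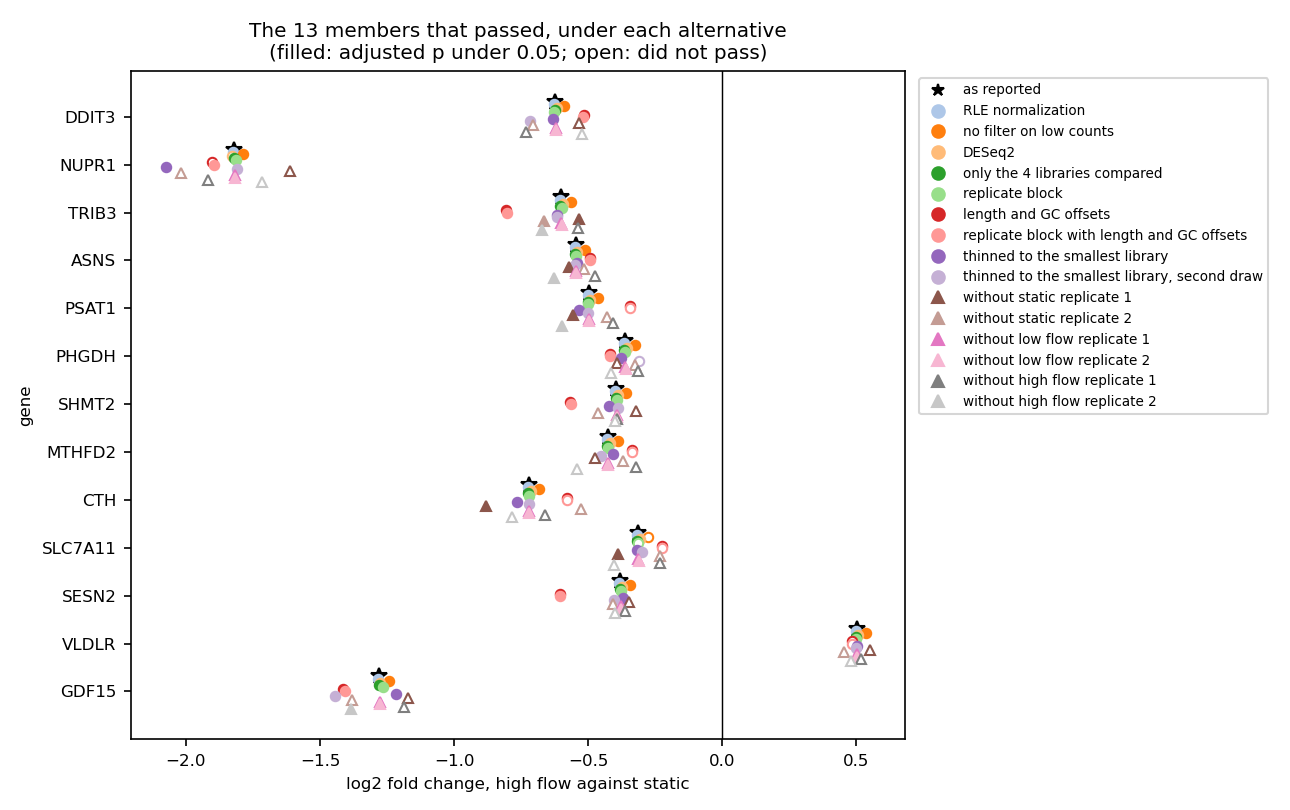
Log2 fold change of the 13 genes that passed in high flow against static under each alternative fit (circles) and with each library left out (triangles), with filled symbols where the adjusted p was under 0.05. Every symbol of the 12 lower genes lies left of 0 and every symbol of VLDLR right of it, while most open symbols belong to fits without a static or a high flow library.

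Log2 fold changes under high flow against static also moved with base composition. Across 20024 genes, which are not independent replicates, their Spearman correlation with the GC content of the transcript was 0.307. It was 0.0588 for low flow against static and 0.447 for high flow against low flow, which also lie in different lanes. The 33 genes had a median GC content of 52.3%, against 48.5% over all genes tested. With offsets for length and GC content 14 of the 33 were lower under high flow against static, 9 of them among the 12. In that fit 5.50% of all genes were lower and 4.67% higher, against 6.43% and 7.49% without the offsets. MTHFD2, SLC7A11 and NUPR1 no longer passed, and SLC3A2, CHAC1, GPT2, PYCR1 and SLC1A5 did. Of genes higher, SLC38A2 passed and VLDLR did not.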

How the data were processed

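RNA from 6 libraries was measured by sequencing. TRIzol lysis, selection of poly(A) RNA and a KAPA stranded library kit were used, per the labels' protocols. The authors deposited raw counts per gene symbol. STAR, featureCounts and hg38 appear in the submitters' processing notes. Versions, strand setting and annotation are not given in the sources used here. All columns were matched to samples through the labels.

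The quasi-likelihood test of edgeR 4.0.16 (R 4.3.3) was fitted once to the 6 libraries, leaving 3 residual degrees of freedom, with TMM normalization, robust dispersions and the default filter (minimum count 10). The p-values are two-sided and adjusted by Benjamini-Hochberg over 20676 genes per comparison, threshold 0.05. CPM were computed from the deposited counts with TMM factors. Values per library relative to static used a pseudocount of 0.5 CPM. The fit was also run on counts simulated from its own spread estimates. These held no effect of lane or GC content, so that run does not bear on either. Positions, exon lengths and GC content came from GENCODE 29 on GRCh38 (56525 of 60591 symbols matched) and are counted from 1. Replicates were not copies: the chi-square per degree of freedom was 12.1 (high flow), 29.8 (low flow) and 15.6 (static).

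The genes and lists were chosen with earlier results of these data known. Any of the 34 genes could be named. Of each further list up to 4 genes that passed were named by smallest p, plus DDIT4 and ATF3. The values of 1 gene that this rule names are not reported here. Alternatives were RLE normalization, no filter, DESeq2 1.42.0, only the 4 libraries compared, a replicate block, length and GC offsets, both together, thinning to the smallest library (with a second random draw added after seeing the data), and each library left out.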

Additional observations from a re-analysis of the deposited data

How the results depend on the processing

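Counts are of the 33 genes (32 where only the compared libraries were used, after thinning, or without low flow replicate 2), with the share of all genes in that fit in brackets. For low flow against static, where 1 was lower (3.49%) and 0 higher (3.25%), the lower count was 7 without the expression filter (2.46%), 4 with DESeq2 (2.12%), 0 with only the 4 libraries compared (1.75%), 6 with length and GC offsets (5.07%), 2 with the replicate block and offsets together (3.01%), and 5 after thinning to the smallest library (4.24%), or 3 in a second random draw chosen after seeing the data (4.46%). The higher count was 2 without the filter (1327 genes in all), 2 with DESeq2 (2.20%) and 1 in the second draw (4.03%). Shares without the filter and with DESeq2 are of unfiltered genes. Leaving out 1 library gave 0 to 18 lower and 0 to 2 higher. For high flow against static, 12 were lower (6.43%) and 1 higher (7.49%). No alternative other than leaving out a library moved the lower count by over 1.5 times. In those fits it ran from 11 with the replicate block (4.90%) to 17 with only the 4 libraries compared (9.74%). With DESeq2 it was 13 (2.91%). With the block and offsets together it was 13 (3.70%), 8 of them among the 12, and the higher count was 0 (3.20%, against 7.49%). Leaving out 1 library gave 0 to 16 lower and 0 to 1 higher. For high flow against low flow, where 0 were called, 1 was lower without the filter (0.192%). The cause of these moves was not tested. When a library is left out, the lone library of its group is assumed to vary like the others.

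The median log2 fold change under high flow against static was -0.27 without the filter, -0.37 with the offsets, -0.37 with block and offsets, and -0.35 to -0.28 with a library left out. Under high flow against low flow it was -0.10 with the offsets, -0.10 with block and offsets, and -0.13 to 0.0888 with a library left out. Under low flow against static it was -0.39 to -0.11 with a library left out.

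Same-numbered libraries were not shown to be pairs: their deviations from group means correlated at 0.11 for high and low flow, -0.01 for high flow and static, and -0.25 for low flow and static. The replicate block called 11 lower and 1 higher under high flow, with SLC7A11 the call it ended, and 1 lower under low flow. With the static numbers crossed, a pairing chosen after seeing the data, low flow against static had 8 lower (5.56%) and 2 higher (5.22%). No called gene changed direction under any alternative. NUPR1, with 6 to 26 counts per library, and ALDH1L2, with 3 to 12, are limited by depth.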
